A study of Mus musculus with 6 samples.

Results

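Genes that mark retinal bipolar cells were followed across the libraries, namely *Vsx1*, *Otx2*, *Isl1*, *Prkca*, *Cabp5*, *Trpm1*, *Pcp2*, *Gng13* and *Nyx*. They were listed by name and no measured value entered the rule, though earlier results of these data were known when they were chosen. They are 9 of the 55573 genes in the deposited count table. All cells came from retinas of adult C57BL/6J mice, and per the study's methods mice of both sexes were used. The control group (GFP) received AAV2-*GFP* in the vitreous and the overexpression group (Ezh2) received AAV2-*Ezh2*. AAV2 is an adeno-associated virus that, given by this route, is used to reach retinal ganglion cells (RGCs), which send their axons into the optic nerve. Both groups had an optic nerve crush 2 weeks later, and live cells positive for CD90.2, the product of *Thy1*, were sorted 3 days after the crush to enrich RGCs. Each group had 3 libraries of total RNA. The study left 1 Ezh2 library out after clustering, and the libraries in its heatmap point to Ezh2 replicate 3. Tests here compared the 3 GFP libraries with Ezh2 replicates 1 and 2, and Ezh2 replicate 3 is given apart. The labels do not say whether replicates came from separate animals, so that p values measure only the spread between these libraries, which may be technical.

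Bipolar cells carry signals from photoreceptors to amacrine cells and RGCs. ON bipolar cells, among them the rod bipolar cells, sense photoreceptor glutamate with the receptor mGluR6 (*Grm6*), which acts through the G protein Go (*Gnao1*, with the beta subunit encoded by *Gnb3* and the gamma subunit encoded by *Gng13*) to close the cation channel TRPM1. When light lowers glutamate, regulators of G protein signaling turn Go off and the channel opens. OFF bipolar cells use ionotropic glutamate receptors instead. The class is specified by homeobox transcription factors. Several of the 9 genes are not exclusive to bipolar cells: *Otx2* is also made by photoreceptors, *Isl1* by RGCs and starburst amacrine cells, and *Prkca* by many cell types outside the retina.

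*Otx2* belongs to the homeobox factors that bind the core TAATCC, and the bases before a start of each of the 9 genes were therefore searched for it. All 9 genes matched the RefSeq promoter table (GRCm38.p6), and the 250 bases before the RefSeq start were read on the gene's strand. Where the table held several starts (4 for *Otx2* and *Pcp2*, 2 for *Trpm1* and *Gng13*), the most upstream one was used, and the others were not searched. TAATCC was present on either strand (as GGATTA on the other) in 3 of 9 members, namely *Isl1* with 1 match, *Cabp5* with 2 and *Trpm1* with 1. Of all 27025 RefSeq promoters of this length, 6.37% held it. TAATTA, the core of many other homeobox factors, which reads the same on both strands, was present in the window of *Otx2* alone among the 9, against 4.91% of all promoters. A match describes letters only and is not evidence of binding. The windows with TAATCC are shown 5′ to 3′ with the matches in capitals, followed by that of *Nyx*, which had the lowest fitted change among the members and no match. They lie at chr13:116309689-116309938 (minus strand, *Isl1*), chr7:13397905-13398154 (plus strand, *Cabp5*), chr7:64153585-64153834 (plus strand, *Trpm1*) and chrX:13460840-13461089 (plus strand, *Nyx*). The *Otx2* window lies wholly inside the gene as GENCODE draws it, as does most of the *Vsx1* window. The last bases of the *Cabp5* and *Prkca* windows and the last base of the *Isl1* and *Gng13* windows also lie inside. The RefSeq start of *Nyx* lies upstream of the GENCODE start.
Isl1: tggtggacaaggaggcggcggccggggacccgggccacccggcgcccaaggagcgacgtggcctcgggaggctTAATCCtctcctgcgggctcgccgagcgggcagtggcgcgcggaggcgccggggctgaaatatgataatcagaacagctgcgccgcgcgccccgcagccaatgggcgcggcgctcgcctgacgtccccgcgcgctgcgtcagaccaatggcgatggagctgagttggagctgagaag
Cabp5: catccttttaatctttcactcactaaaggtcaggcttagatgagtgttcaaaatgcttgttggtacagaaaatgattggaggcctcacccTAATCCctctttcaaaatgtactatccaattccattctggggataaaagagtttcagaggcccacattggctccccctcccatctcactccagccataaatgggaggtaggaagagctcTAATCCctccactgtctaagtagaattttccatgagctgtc
Trpm1: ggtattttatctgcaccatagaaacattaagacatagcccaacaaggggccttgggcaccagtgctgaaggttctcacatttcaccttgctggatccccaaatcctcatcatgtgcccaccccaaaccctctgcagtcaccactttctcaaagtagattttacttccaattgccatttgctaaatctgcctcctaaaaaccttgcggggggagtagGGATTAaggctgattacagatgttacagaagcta
Nyx: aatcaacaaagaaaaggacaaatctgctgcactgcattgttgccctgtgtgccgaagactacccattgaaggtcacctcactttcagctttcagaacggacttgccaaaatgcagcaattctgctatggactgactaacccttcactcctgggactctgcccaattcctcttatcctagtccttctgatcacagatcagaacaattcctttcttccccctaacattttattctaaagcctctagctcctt

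The libraries held 30569933 to 35971192 counts, so that a count of 0 allows up to 3 counts, or 0.0834 to 0.0981 CPM, which are counts scaled to a common library total. Such floors cover counting error only. *Ezh2*, the overexpressed gene, was at 28.8 to 34.6 CPM in the GFP libraries, at 78.0 and 65.3 CPM in Ezh2 replicates 1 and 2, and at 105 CPM in Ezh2 replicate 3. Although the cells are labelled as RGCs, the RGC-defining transcription factors *Pou4f2* and *Isl2* had 0 to 3 and 1 to 5 counts in each library. Other RGC markers of that list were detected, among them *Thy1* at 2760 to 4095 counts, *Rbpms* at 501 to 671 and *Nefl* at 288 to 540. *Glul*, which encodes the glutamine synthetase of Müller glia, reached 5446 to 9900 CPM. The members were measured in these mixed cell populations.

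All 9 bipolar genes were detected in each of the 6 libraries, and none of them passed the test between GFP and Ezh2 replicates 1 and 2. Of the members, 0 of 9 were called in the quasi-likelihood test of edgeR, which asked for over 1.5-fold change at a Benjamini-Hochberg adjusted p below 0.05, against 3.8% of the 20241 genes tested (2.52% higher and 1.28% lower). By adjusted p alone, 0 of 9 passed as well, against 17.8% of all genes. At an unadjusted p under 0.05 there were 2 of 9 members, *Cabp5* and *Nyx*, a share that did not exceed the 29.3% of all genes, and DESeq2 and limma-voom also called 0. Fitted changes were below 0 for 7 of 9 members, with a median log2 fold change of -0.10 against -0.0078 over all genes tested. For 7 of 9 members the whole 95% interval of the change lay within 1.5-fold of no change in either direction, and the other two, *Vsx1* and *Nyx*, had intervals that reached past it. In bulk libraries of sorted cells, fewer bipolar cells and less RNA per bipolar cell cannot be told apart.

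**Figure D1:**
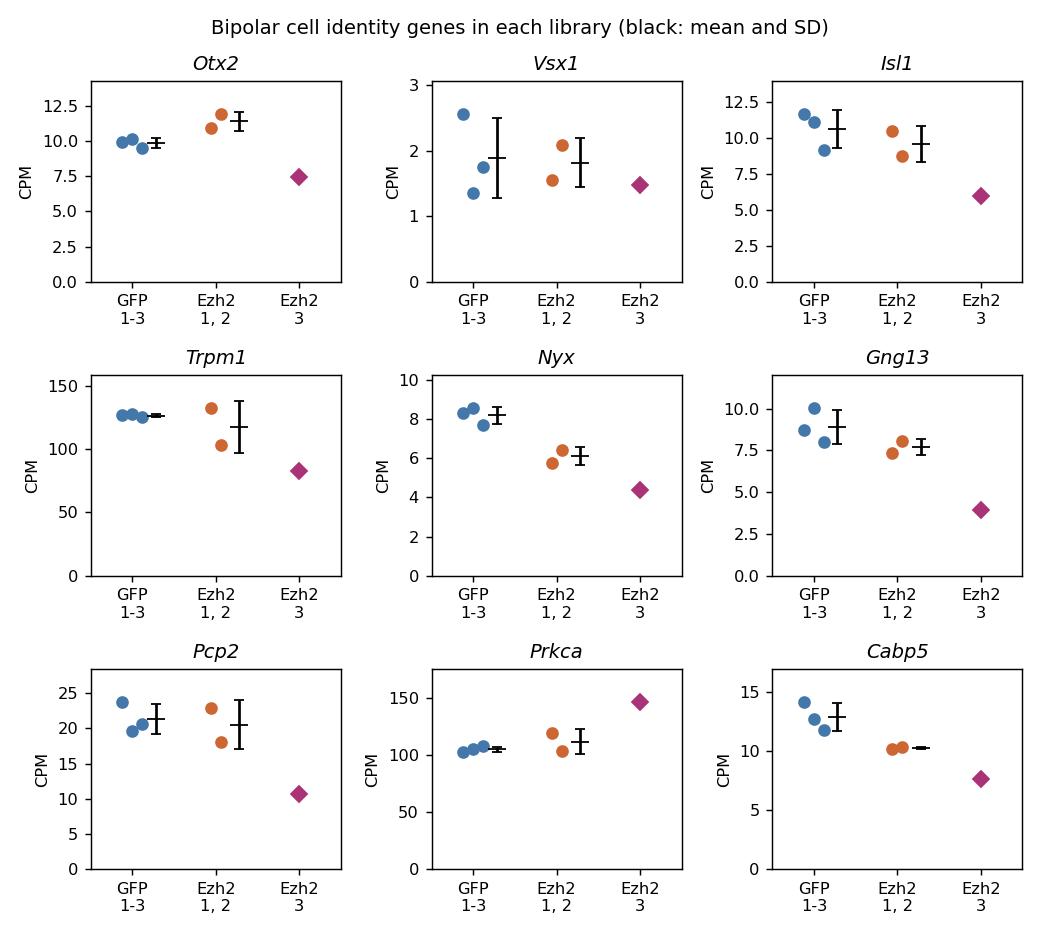
CPM of the 9 bipolar genes (vertical axes, linear and starting at 0) in the 3 GFP libraries, in Ezh2 replicates 1 and 2 and in Ezh2 replicate 3. Each point is 1 library, and black bars give the mean and SD of the GFP libraries and of Ezh2 replicates 1 and 2. Ezh2 replicate 3 is the lowest library for 7 of the 9 genes and the highest for *Prkca*.

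Among the transcription factors, *Otx2* (ENSMUSG00000021848, chromosome 14, 48657677 to 48673819, minus strand), which specifies photoreceptors and bipolar cells, was at 9.94, 10.1 and 9.47 CPM in GFP replicates 1 to 3 and at 10.9 and 11.9 CPM in Ezh2 replicates 1 and 2. Both Ezh2 libraries were thus above all GFP libraries. Its log2 fold change was 0.22 ± 0.13 (SE, edgeR adjusted p = 0.254). A separation of this kind, with Ezh2 higher, was found in 21.5% of the genes tested, and *Otx2* was the only member to show it. Exons of *Otx2* share 154 bases with the opposite-strand gene *Otx2os1*, which stayed at 1.46 to 2.34 CPM over the 6 libraries, and 168 bases with *Gm49154* on the same strand. The strand setting of the counting is not given in the sources used here, so that reads in such shared bases are uncertain.

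*Isl1* (ENSMUSG00000042258, chromosome 13, 116298281 to 116309689, minus strand), a LIM homeobox factor of ON bipolar cells, RGCs and starburst cells, was at 11.6, 11.1 and 9.18 CPM in the GFP libraries and at 10.5 and 8.73 CPM in Ezh2 replicates 1 and 2. The groups overlapped, and the log2 fold change was -0.14 ± 0.14 (SE, edgeR adjusted p = 0.567). *Chat* and *Slc18a3*, which define starburst cells, had 0 to 12 and 0 to 3 counts per library, and *Isl1* had 215 to 356. *Megf10*, which is also on the starburst list but is not specific to those cells, had 8738 to 11382. Which cells made *Isl1* was not tested.

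*Vsx1* (ENSMUSG00000033080, chromosome 2, 150680702 to 150689360, minus strand), a homeobox factor of some cone bipolar types, was the scarcest member. It had 78, 43 and 54 counts in the GFP libraries and 50 and 73 in Ezh2 replicates 1 and 2, or 1.36 to 2.55 CPM against 1.55 and 2.08 CPM. The GFP libraries alone spanned more than the Ezh2 pair, and the log2 fold change of -0.04 ± 0.32 (SE, edgeR adjusted p = 0.956) had a 95% interval from -0.69 to 0.61. The interval reached past 1.5-fold in both directions. The sign of this value depended on single libraries, turning to 0.24 without GFP replicate 1 and to 0.17 without Ezh2 replicate 1.

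Of the genes of the ON response, *Trpm1* (ENSMUSG00000030523, chromosome 7, 64153835 to 64269775, plus strand), the channel itself, was at 127, 128 and 125 CPM in the GFP libraries, which differed by little (127 ± 1.2 CPM, SD, n = 3). Ezh2 replicate 1 lay above them at 132 CPM and Ezh2 replicate 2 below them at 103 CPM. The log2 fold change was -0.10 ± 0.07 (SE, edgeR adjusted p = 0.431). It became 0.062 without Ezh2 replicate 2 and -0.27 without Ezh2 replicate 1, the latter with an adjusted p of 0.00137 and a change under 1.5-fold, where the lone Ezh2 library is assumed to vary like the GFP libraries.

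*Nyx* (ENSMUSG00000051228, chromosome X, 13466110 to 13489313, plus strand) encodes nyctalopin, a leucine-rich repeat protein that places TRPM1 at the dendritic tips. It was at 8.31, 8.56 and 7.71 CPM in the GFP libraries (8.19 ± 0.437 CPM, SD, n = 3) and at 5.78 and 6.42 CPM in Ezh2 replicates 1 and 2. Both Ezh2 libraries were below all GFP libraries. The log2 fold change was -0.41 ± 0.16 (SE), a ratio of 0.751, and its 95% interval of -0.73 to -0.09 did not include 0. Over all genes, however, the edgeR adjusted p was 0.0664, above the threshold, and it ranged from 0.0525 to 0.333 over the 15 alternative settings, in each of which the value was below 0.

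*Gng13* (ENSMUSG00000025739, chromosome 17, 25717171 to 25719406, plus strand), the gamma subunit that pairs with *Gnb3*, was at 8.73, 10.02 and 8.004 CPM in the GFP libraries and at 7.36 and 8.05 CPM in Ezh2 replicates 1 and 2. The groups overlapped narrowly, with a log2 fold change of -0.20 ± 0.15 (SE, edgeR adjusted p = 0.409). Of its 773 exonic bases, 399 are shared with the opposite-strand gene *Chtf18*, which was at 4.55 to 5.50 CPM in the GFP libraries and at 7.14 and 5.28 CPM in Ezh2 replicates 1 and 2.

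*Pcp2* (ENSMUSG00000004630, chromosome 8, 3623371 to 3625545, minus strand), whose product binds the Go alpha subunit, was at 23.7, 19.7 and 20.7 CPM in the GFP libraries and at 22.9 and 18.0 CPM in Ezh2 replicates 1 and 2. One Ezh2 library lay inside the GFP range and the other just under it, and the log2 fold change was -0.05 ± 0.11 (SE, edgeR adjusted p = 0.808). It turned to 0.032 without GFP replicate 1 and to 0.10 without Ezh2 replicate 2. Its exons share 941 of 1828 bases with *Pet100* on the other strand, which was at 12.3 to 17.4 CPM over the 6 libraries.

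The remaining members are signaling and calcium-binding proteins by which rod bipolar cells are commonly stained. *Prkca* (ENSMUSG00000050965, chromosome 11, 107933387 to 108343928, minus strand), protein kinase C alpha, was at 103, 105 and 107 CPM in the GFP libraries and at 119 and 104 CPM in Ezh2 replicates 1 and 2. The log2 fold change was 0.10 ± 0.06 (SE, edgeR adjusted p = 0.277), with a 95% interval of -0.02 to 0.21. Without Ezh2 replicate 2 it was 0.18 with an adjusted p of 0.0468, a change under 1.5-fold.

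*Cabp5* (ENSMUSG00000005649, chromosome 7, 13398132 to 13408887, plus strand), a calcium-binding protein of rod bipolar and some cone bipolar cells, was at 14.2, 12.8 and 11.8 CPM in the GFP libraries and at 10.2 and 10.3 CPM in Ezh2 replicates 1 and 2. Like *Nyx*, it was lower in both Ezh2 libraries than in all GFP libraries, a separation that 23.4% of the genes tested also had in this direction. Its log2 fold change was -0.32 ± 0.12 (SE, edgeR adjusted p = 0.0745), and the adjusted p ranged from 0.0573 to 0.250 over the alternative settings. The value was below 0 in each of them.

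**Figure D2:**
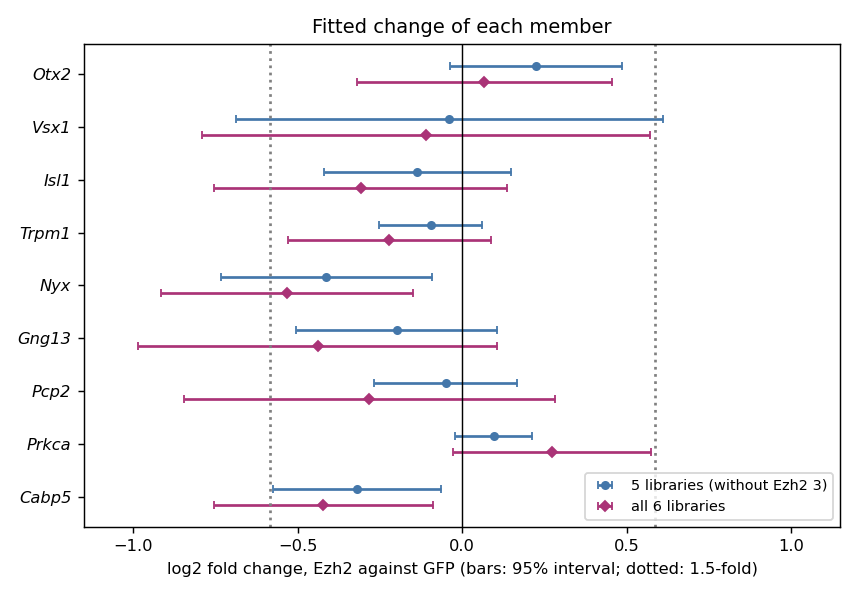
Fitted log2 fold change of the 9 bipolar genes, Ezh2 against GFP, from edgeR with 5 libraries (circles) and with all 6 libraries (diamonds). Bars are 95% intervals, the solid line marks no change and dotted lines mark 1.5-fold. The intervals of *Nyx* and *Cabp5* lie below 0 in both fits.

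The other genes of the ON response were read from a list of 10. None was called, and 6 had an unadjusted p under 0.05, against 29.3% of all genes. Of these 6, 3 had values above 0, namely *Lrit1* (0.26), *Rgs9bp* (0.25) and *Gnb3* (0.22), and 3 had values below 0. Summed photoreceptor markers were higher in Ezh2 replicates 1 and 2 than in the GFP libraries. The part of photoreceptors in the values of these genes was not tested. *Grm6*, the glutamate receptor at the head of the pathway, was at 16.6, 16.9 and 17.5 CPM in the GFP libraries and at 18.1 and 14.8 CPM in Ezh2 replicates 1 and 2, with a log2 fold change of -0.04 ± 0.11 (SE, edgeR adjusted p = 0.855). By adjusted p alone, which 7.68% of all genes passed as lower, 2 of the 10 fell by less than 1.5-fold. They were *Lrit3*, a leucine-rich repeat protein of the same synapse, at -0.31 ± 0.10 on the log2 scale (edgeR adjusted p = 0.0245), and *Gnao1*, the Go alpha subunit that many neurons make, at -0.26 ± 0.06 (edgeR adjusted p = 0.000692). *Lrit3* did not pass with all 6 libraries (adjusted p = 0.129), without GFP replicate 3 (0.131), without Ezh2 replicate 2 (0.309) or with a replicate block (0.140, and 0.205 with all 6 libraries), and *Gnao1* did not pass with a replicate block in all 6 libraries (0.0995). Without GFP replicate 1, *Lrit1* (0.37, edgeR adjusted p = 0.0156) and *Gnb3* (0.26, edgeR adjusted p = 0.04997) passed as higher, each by less than 1.5-fold. The median of the list was -0.03.

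Of 10 further transcription factors of bipolar cells, none was called, 2 reached an unadjusted p under 0.05, against 29.3% of all genes, and the list had a median log2 fold change of -0.01. *Lhx4*, a LIM homeobox factor of cone bipolar cells and one of those 2, was at 4.22, 8.09 and 7.16 CPM in the GFP libraries and at 3.88 and 4.62 CPM in Ezh2 replicates 1 and 2. Its first GFP library lay among the Ezh2 libraries and well under the others of its group. Its log2 fold change was -0.60 ± 0.23 (SE, edgeR adjusted p = 0.0715), and without GFP replicate 1 it was -0.83 with an adjusted p of 0.00267. With any other library left out it was -0.74 to -0.41, with adjusted p of 0.127 to 0.354.

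Markers of single bipolar types gave the only calls among these lists, 2 of 14, both higher, where 2.52% of all genes were called higher. *Erbb4*, a neuregulin receptor, was at 1.37, 1.11 and 1.43 CPM in the GFP libraries and at 2.27 and 2.51 CPM in Ezh2 replicates 1 and 2. It rose by a log2 fold change of 0.88 ± 0.30 (SE, edgeR adjusted p = 0.0380). *Lrrtm1*, a synaptic leucine-rich repeat protein, was at 1.28, 0.695 and 0.586 CPM in the GFP libraries and at 1.96 and 1.91 CPM in Ezh2 replicates 1 and 2, with a log2 fold change of 1.19 ± 0.36 (SE, edgeR adjusted p = 0.0201). *Erbb4* had 35 to 88 counts and *Lrrtm1* 18 to 67 counts per library, and both are also made by other neurons. Both calls were lost with all 6 libraries, at adjusted p of 0.0738 for *Erbb4* and 0.115 for *Lrrtm1*, and also on leaving out GFP replicate 2 (0.121 and 0.0710), GFP replicate 3 (0.0557 and 0.0914), Ezh2 replicate 1 (0.0981 and 0.0891) or Ezh2 replicate 2 (0.240 and 0.103). The median of the 14 was 0.07.

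Ezh2 replicate 3 differed from the other libraries in these genes. It was the lowest of the 6 libraries for 7 of the 9 members, where it was the lowest for 38.6% of all genes by library totals and for 31.6% after TMM scaling, the same 7 of 9 being counted under both. At 43.95% to 59.4% of the GFP mean lay *Gng13* (3.92 CPM), *Pcp2* (10.6 CPM), *Nyx* (4.39 CPM), *Isl1* (5.98 CPM) and *Cabp5* (7.67 CPM). *Trpm1* was at 83.0 CPM, 65.4% of its GFP mean, and *Otx2* at 7.42 CPM, 75.4%. *Vsx1* stood at 78.0%, inside the range of the other libraries.

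The exception was *Prkca*, which was at 146 CPM in Ezh2 replicate 3, 139% of its GFP mean and above all other libraries. It was the only member highest in that library, as were 25.5% of all genes. The median of the 9 members was 59.4% of the GFP mean, against 91.7% over all genes. *Chtf18*, which shares exons with *Gng13*, was at 19.3 CPM there, or 388% of its GFP mean, so that *Gng13* had its lowest and *Chtf18* its highest level in the same library.

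Many of the other bipolar genes also had their lowest value in that library, though not all. Ezh2 replicate 3 was the lowest library for 8 of the 10 genes of the ON response, for 10 of the 10 transcription factors and for 8 of the 14 type markers, or 33 of 43 bipolar genes with the members counted, beside the 38.6% of all genes. In the marker lists of other cells, it was the lowest for 6 of 7 Müller glia, 5 of 6 microglia and 6 of 10 rod genes. The counts were 3 of 5 for B cell, 2 of 8 for amacrine and 1 of 11 for RGC genes. They were 0 of 9 for cone and 0 of 7 for T cell genes. *Grm6* was at 12.2 CPM in Ezh2 replicate 3, which is 71.6% of its GFP mean. Above their GFP means were the type markers *Erbb4* at 2.14 CPM, *Lrrtm1* at 1.33 CPM, *Neto1* at 0.723 CPM and *Syt2* at 3.75 CPM.

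**Figure D3:**
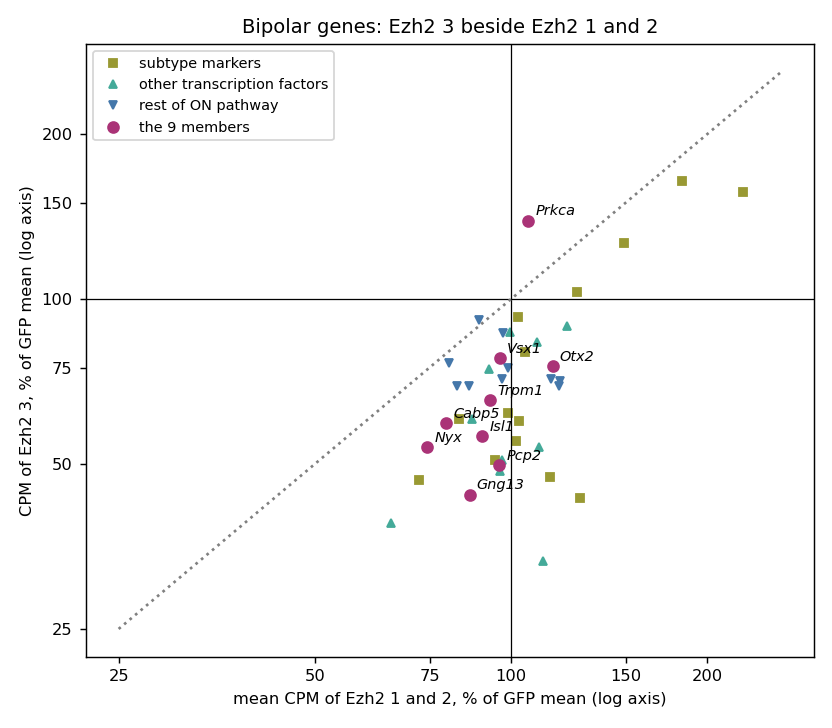
CPM of 43 bipolar genes in Ezh2 replicate 3 (vertical axis) against the mean of Ezh2 replicates 1 and 2 (horizontal axis), each as a percentage of the GFP mean, on log axes. Each point is 1 gene, solid lines mark the GFP mean and the dotted line marks equal values. Most points lie below the dotted line, and *Prkca* lies above it.

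With Ezh2 replicate 3 in the fit, 0 of 9 members were called either, against 2.52% of the 19732 genes then tested, and 2 of 9 had an unadjusted p under 0.05, against 24.5% of all genes. The median log2 fold change moved to -0.28, against 0.0083 over all genes. *Nyx* was at -0.53 ± 0.17 (SE, edgeR adjusted p = 0.103), *Gng13* at -0.44 ± 0.24 (adjusted p = 0.292) and *Cabp5* at -0.42 ± 0.15 (adjusted p = 0.125). *Prkca* was at 0.27 ± 0.13 (edgeR adjusted p = 0.244). For *Nyx* and *Cabp5*, the 3 Ezh2 libraries all lay below the 3 GFP libraries, as was found for 19.3% of genes. Intervals widened with the third library, and those of 3 members stayed within 1.5-fold of no change.

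Levels of the members were compared per kilobase of exon in the GFP libraries. *Prkca*, *Pcp2* and *Gng13* were the most abundant at 11.7, 11.7 and 11.5 CPM per kilobase, and their ranges over the 3 GFP libraries overlapped. *Pcp2* shares 941 of 1828 exonic bases, and *Gng13* 399 of 773, with opposite-strand genes. With the strand setting unknown, the levels and places of these genes are uncertain. *Trpm1* followed at 8.60, *Cabp5* at 5.11, *Isl1* at 2.69, *Otx2* at 2.33, *Nyx* at 1.58 and *Vsx1* at 0.498 CPM per kilobase. Among these, the ranges of *Isl1* and *Otx2* overlapped, while other neighbors in the order were apart in their ranges. *Cabp5*, *Nyx* and *Vsx1* kept their place, the fifth, eighth and ninth, in each of the 6 libraries. In Ezh2 replicate 3 *Prkca* was at 16.2 CPM per kilobase and the next member, *Pcp2*, at 5.81.

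Across the 6 libraries, the log2 CPM of the members, each centered on its own mean, averaged 0.24, 0.12 and 0.06 in GFP replicates 1 to 3, 0.05 and 0.01 in Ezh2 replicates 1 and 2, and -0.47 in Ezh2 replicate 3. Single members differed from this mean profile by a root mean square of 0.10 (*Cabp5* and *Trpm1*) to 0.39 (*Prkca*). Among 13764 other genes with at least 100 counts on average, the nearest to the mean profile were *Erlec1* (0.026), *Fer* (0.034), *Mex3d* (0.036), *Rcan1* (0.039) and *Gcfc2* (0.039). *Erlec1*, the nearest, was at 35.2 to 40.7 CPM in the GFP libraries, 33.7 and 33.6 CPM in Ezh2 replicates 1 and 2, and 24.2 CPM in Ezh2 replicate 3. These genes were ranked over only 6 libraries, so the order is a description.

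Because the sorted cells were mixed, marker lists of other cells were read beside the members, as CPM summed over each list. The 9 members summed to 301 to 309 CPM in the GFP libraries, 321 and 272 CPM in Ezh2 replicates 1 and 2, and 271 CPM in Ezh2 replicate 3, with *Prkca* and *Trpm1* as the main terms. Photoreceptor markers were higher in Ezh2 replicates 1 and 2. Rod markers went from 443 to 517 CPM in the GFP libraries to 768 and 814 CPM, and were at 456 CPM in Ezh2 replicate 3. Of the 10 genes, 3 were called higher, among them *Pde6a* and *Cnga1*, against 2.52% of all genes. By adjusted p alone 8 were higher, against 10.1% of all genes. Cone markers went from 29.4 to 30.4 CPM to 67.9 and 59.4 CPM, and were at 39.8 CPM in Ezh2 replicate 3. Of these, 8 of 9 were called higher, against the same 2.52% of all genes. *Otx2*, which photoreceptors share, had its highest values in Ezh2 replicates 1 and 2 as well.

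The summed level of Müller glia markers was lower in each Ezh2 library, at 19549 to 20248 CPM in the GFP libraries, 15587 and 16030 CPM in Ezh2 replicates 1 and 2, and 12817 CPM in Ezh2 replicate 3. *Glul* made up 9757 of the 20003 CPM of the GFP mean, and 1 of the 7, *Vim*, was higher in each Ezh2 library (1276 to 1377 CPM) than in the GFP libraries (1194 to 1254 CPM). Of the 7, 0 passed the fold threshold and 6 were lower by adjusted p alone in edgeR, against 7.68% of all genes. Among them was *Glul* at a log2 fold change of -0.49 ± 0.05 (adjusted p = 4.01e-08). T cell markers summed to 357 to 382 CPM in the GFP libraries, 481 and 457 CPM in Ezh2 replicates 1 and 2 and 743 CPM in Ezh2 replicate 3. Of the 7, 1, *Cd8a*, was called higher, against 2.52% of all genes. By adjusted p alone 6 were higher, against 10.1% of all genes. Microglia markers were at 1190 to 1326 CPM, then 1486 and 1559 CPM, then 1054 CPM, with 0 of 6 called and 4 higher by adjusted p alone, as were 10.1% of all genes. B cell markers were at 20.2 to 24.7 CPM, then 26.8 and 28.4 CPM, then 18.9 CPM, with 0 of 5 called and 1, *Cd79b*, higher by adjusted p alone.

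Among inner retinal neurons, RGC markers summed to 127 to 132 CPM in the GFP libraries, 161 and 149 CPM in Ezh2 replicates 1 and 2 and 167 CPM in Ezh2 replicate 3. Most of it was *Thy1*, which encodes the antigen of the sort. Its level was 87.2 to 92.6 CPM in the GFP libraries and 109 and 98.9 CPM in Ezh2 replicates 1 and 2. Ezh2 replicate 3 held 114 CPM. Of the 11 listed genes, 6 were highest in that library, *Thy1* among them. The T cell sum was highest there as well, and which cells made *Thy1* was not tested. Of the RGC markers, 1 of 8 tested genes, *Nefh*, was called higher. By adjusted p alone 3 of the 8 were higher (*Thy1*, *Nefl* and *Nefh*), against 10.1% of all genes. Amacrine markers were at 67.9 to 79.8 CPM, then 53.0 and 47.2 CPM, then 49.2 CPM. *Slc6a9* made up 53.3 of the 72.6 CPM of the GFP mean. Among the 7 tested, *Tfap2b* was called lower and *Tfap2c* higher. Fitted changes were below 0 for 5 of the 7, but not for *Gad1* (0.73, edgeR adjusted p = 0.0537). *Gad1* was at 1.77 to 1.93 CPM in the GFP libraries and at 12.1 CPM in Ezh2 replicate 3. Of the horizontal cell markers, *Calb1* alone was tested and called lower. The list summed to 2.65 to 3.37 CPM in the GFP libraries and to 0.621, 0.428 and 0.222 CPM in Ezh2 replicates 1 to 3. *Calb1* made up 2.92 of the 3.07 CPM of the GFP mean. *Lhx1* and *Onecut1*, the others of that list, had 0 to 2 and 0 to 6 counts per library. Which cells made *Calb1* was not tested. Of the starburst markers, *Megf10* alone was tested and was lower by adjusted p alone, at -0.29 ± 0.05 on the log2 scale (edgeR adjusted p = 9.52e-05), and it is not specific to those cells. Of all genes tested, 2.52% were called higher, 1.28% were called lower and 7.68% were lower by adjusted p alone. The part of these other cells in the values of the bipolar genes was not tested.

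**Figure D4:**
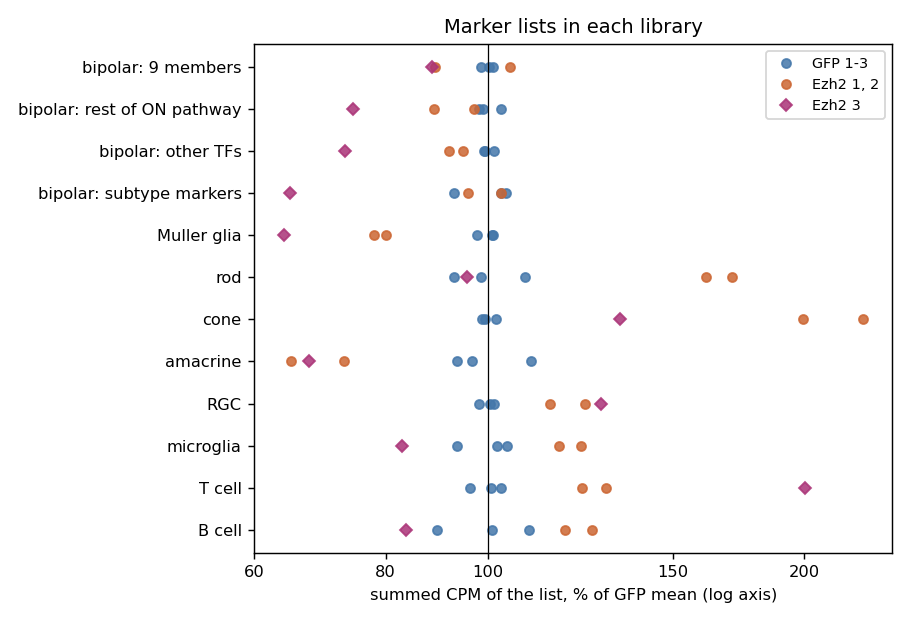
Summed CPM of each marker list in each of the 6 libraries, as a percentage of the mean of the 3 GFP libraries, on a log axis. Each point is 1 library. Ezh2 replicate 3 lies leftmost for the members, the other bipolar lists, Müller glia, microglia and B cells, and rightmost for T cell and RGC markers.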

How the data were processed

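RNA-Seq libraries were made from cells sorted from the retina with a stranded total RNA kit, per the labels. The authors deposited raw counts of reads for each Ensembl gene in 6 libraries, and the submitters' processing notes name STAR 2.7.0d and GRCm38. The counting program, annotation and strand setting are not given in the sources used here. Labels matched all 6 columns to samples, which left 0 columns unused. GENCODE M21 (GRCm38) matched 55480 of 55573 identifiers and supplied symbols, coordinates and the merged exon length of each gene.

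After filterByExpr and TMM scaling, counts were fitted with edgeR 4.0.16 (quasi-likelihood F test, robust option) in R 4.3.3, with group as the only term. Tests were two-sided, adjusted by the Benjamini-Hochberg method over all genes tested, and a call needed an adjusted p below 0.05 with over 1.5-fold change. CPM was computed on library totals, and profiles used log2 CPM (prior count 2). SEs were derived from the F statistic. The settings tried were all 6 libraries, leaving out each library, the replicate number as a block, other scaling, other filters, DESeq2 1.42.0, limma-voom (limma 3.58.1), no fold threshold and, added after seeing the data, no robust option. Tables were handled with pandas 2.3.3 in Python 3.11.15 and plots drawn with matplotlib 3.10.9. The fit was tested on simulated counts.

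The members and gene lists were chosen with earlier results of these data known. Named genes were the members, *Ezh2*, *Grm6*, called genes of the bipolar lists, up to 3 genes of each other marker list with the highest CPM, and the 5 genes nearest to the members' mean profile. Results of some genes in these lists are not reported here. *Pou4f2*, *Isl2*, *Chat*, *Slc18a3*, *Lrit3*, *Gnao1*, *Lrit1*, *Rgs9bp*, *Gnb3*, *Neto1*, *Syt2*, *Lhx4*, *Vim*, *Pde6a*, *Cnga1*, *Cd8a*, *Nefh*, *Tfap2c* and the genes that share exons with members were named after their values were seen.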

Additional observations from a re-analysis of the deposited data

Results flagged for a closer look

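*Prkca* in Ezh2 replicate 3, a library outside the tests, was at 146 CPM, above the 103, 105 and 107 CPM of the control libraries and the 119 and 104 CPM of Ezh2 replicates 1 and 2, while 7 of the other members had their lowest value there. This difference of 1 library was not tested, and groups of 3 libraries were too small to be screened for single samples that lie apart.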

How the results depend on the processing

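Precision was limited by the 2 Ezh2 libraries of the main comparison and *Vsx1* had 43 to 78 counts per library. Of the members, 0 of 9 were called under each of the 15 alternatives, and 6 of 9 kept the sign of their change in all of them. The sign turned for *Vsx1* (0.24 without GFP replicate 1, 0.17 without Ezh2 replicate 1), *Trpm1* (0.062 without Ezh2 replicate 2, against -0.27 without Ezh2 replicate 1) and *Pcp2* (0.032 without GFP replicate 1, 0.10 without Ezh2 replicate 2), and the cause was not tested. Over all genes, 770 were called, with 498 for all 6 libraries, 3605 with no fold change threshold, and 624 to 794 with each library left out. By adjusted p alone, 2 genes of the ON response passed. *Lhx4* was the 1 called transcription factor without GFP replicate 1 and with no filter on low counts, so the count ranged from 0 to 1 with each library left out. Of the type markers, 2 were called, with 0 for all 6 libraries, 0 to 2 with each library left out, and 1 with no filter (*Lrrtm1*), with a mean of at least 50 counts (*Erbb4*, where *Lrrtm1* was not tested) and with DESeq2 (*Lrrtm1*).

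With all 6 libraries, median log2 fold changes were -0.28 for the members, -0.11 for the ON response, -0.19 for the transcription factors and -0.12 for the type markers. With each library left out they ranged from -0.22 to -0.021 for the members, -0.11 to -0.0070 for the ON response, -0.063 to 0.098 for the transcription factors and 0.0064 to 0.23 for the type markers.

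Same-numbered libraries did not deviate together (correlations of -0.027, -0.022 and -0.034), so the numbers were not taken as a pairing. With a replicate block, 0 members were called in 5 or 6 libraries, 0 type markers were called in either, and 396 genes were called in all 6 libraries, where medians were -0.33 for the members, -0.11 for the ON response, -0.24 for the transcription factors and -0.16 for the type markers.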
